A study of Homo sapiens with 12 samples.

Results

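The genes described here are 9 that hold apoptosis back: the survival BCL2 genes BCL2, BCL2L1, BCL2L2, MCL1 and BCL2A1, the inhibitor of apoptosis genes BIRC2, XIAP and BIRC6, and CFLAR. They were chosen by symbol, through their Ensembl identifiers, from a deposited table of 20263 genes, and the rule used no measured value, although it was written with earlier results of these data known. The table holds mRNA levels of the established human glioblastoma line U-87 MG in 12 libraries from cells kept at 1% O2, for 72 h by the record of these samples, while the methods of the study give a shorter time for mRNA detection in general. The 4 groups, with 3 libraries each, were cells with an empty vector (vector), cells with a HIF1α knockout (HIF1α-ko), cells with a HIF2α knockout (HIF2α-ko) and cells with both (HIF1α/2α-ko). For other assays the methods give 3 days at 1% O2 with the drug temozolomide, and the labels of these samples name no temozolomide. All 4 groups were hypoxic, and no normoxic library was analysed here. How the knockouts were made, and whether a group is 1 clone, is not given in the sources used here. The labels do not say that the libraries of a group came from separate cultures, so each p-value measures only the spread between these libraries, which may be technical.

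In the mitochondrial pathway of apoptosis, BAX and BAK1 make pores in the outer mitochondrial membrane and release cytochrome c, which starts caspase activation. Survival BCL2 proteins bind BAX, BAK1 and the BH3-only proteins that activate them, XIAP binds and blocks caspases further down, and CFLAR stops caspase 8 at death receptors. HIF1α and HIF2α, the oxygen-regulated transcription factors encoded by HIF1A and EPAS1, pair with ARNT and bind short hypoxia response elements, and glioblastoma is known for its hypoxic zones and for its resistance to cell death.

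Because both knocked-out proteins bind DNA at a core of ACGTG or GCGTG, the bases before the start of each gene were searched for these letters on both strands. RefSeq promoter windows (GRCh38.p14), of which the 250 bases before the start were read, were matched for 7 of the 9 genes, with 15 windows in all, since some genes have several starts. MCL1 and BCL2L2 had no window. At least 1 match lay in 7 of the 15 windows, of BCL2L1, XIAP, BIRC6 and CFLAR, against 43.2% of all 35116 windows of the same length. Of the 2 BCL2L1 windows, 1 held GCGTG, at 64 bases before that start, in a stretch that is exonic in other BCL2L1 transcripts. Of the 3 XIAP windows, 2 held a match, and the first of them held CACGT, the other strand of ACGTG, at 191 bases before the start. The windows below lie mostly before the first exon. They are shown for BCL2L1 and XIAP, which were highest in HIF1α/2α-ko, and for BIRC6, a gene of the same family as XIAP that did not pass the test there. Matches are in capitals, and each window is written 5′ to 3′ on the strand of its gene.
BCL2L1, chr20:31723964-31724213, minus strand: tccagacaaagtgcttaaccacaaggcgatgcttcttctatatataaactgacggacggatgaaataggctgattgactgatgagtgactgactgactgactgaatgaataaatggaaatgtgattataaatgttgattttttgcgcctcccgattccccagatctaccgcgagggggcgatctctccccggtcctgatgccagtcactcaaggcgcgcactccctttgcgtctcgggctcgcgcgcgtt
XIAP, chrX:123859458-123859707, plus strand: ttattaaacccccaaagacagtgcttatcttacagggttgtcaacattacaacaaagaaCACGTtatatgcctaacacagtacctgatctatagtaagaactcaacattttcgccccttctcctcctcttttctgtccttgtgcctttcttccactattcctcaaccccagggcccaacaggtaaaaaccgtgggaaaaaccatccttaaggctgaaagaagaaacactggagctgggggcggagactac
BIRC6, chr2:32356773-32357022, plus strand: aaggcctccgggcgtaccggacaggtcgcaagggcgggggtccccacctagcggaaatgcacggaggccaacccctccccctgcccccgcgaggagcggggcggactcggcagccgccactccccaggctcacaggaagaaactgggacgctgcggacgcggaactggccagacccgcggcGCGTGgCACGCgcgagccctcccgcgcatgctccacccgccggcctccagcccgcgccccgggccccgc
The BCL2L1 window holds no match. The BIRC6 window holds GCGTG and CACGC, with a single base between them. A match is a description of the letters and not a binding site, and binding was not measured here.

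The knockout targets were read first. HIF1A stood at 112, 110 and 151 TPM in vector and at 57.3, 49.5 and 38.6 TPM in HIF1α-ko. TPM is a transcript abundance per unit of gene length with the same sum in every library, so levels of different genes can be compared, but the depth of the libraries is unknown. HIF1A fell in HIF1α-ko by 1.34 ± 0.20 (SE) on the log2(TPM + 1) scale, on which every fold change here is given, with an adjusted p of 0.000851 by limma. In HIF1α/2α-ko it stood at 89.2, 67.8 and 69.4 TPM, lower than in vector (log2 fold change -0.71, adjusted p = 0.0104). These libraries were all above those of HIF1α-ko (log2 fold change 0.64, adjusted p = 0.0287, past the threshold in 15 of 21 alternatives). They overlapped HIF2α-ko (108, 76.1 and 76.6 TPM, log2 fold change -0.19, adjusted p = 0.453). The HIF1A mRNA level therefore does not by itself separate HIF1α/2α-ko from HIF2α-ko, and every direction drawn for HIF1α/2α-ko rests on its label. EPAS1 stood at 286 to 346 TPM in vector, 251 to 288 TPM in HIF1α-ko, 87.6 to 118 TPM in HIF2α-ko and 101 to 130 TPM in HIF1α/2α-ko. It fell in both groups labelled with the HIF2α knockout, alone and combined (log2 fold changes -1.59 and -1.45, adjusted p = 0.000375 and 1.3e-05). Among markers of the line, VIM was at 5635 to 14690 TPM, CD44 at 399 to 1412 TPM, TNC at 676 to 902 TPM and NES at 2.64 to 6.17 TPM, whereas the astrocyte marker GFAP did not exceed 0.639 TPM. VIM fell in HIF1α/2α-ko (log2 fold change -0.96, adjusted p = 0.000412) and HIF2α-ko (-0.81, adjusted p = 0.00858) and stood at -0.29 in HIF1α-ko (adjusted p = 0.198). TNC fell in HIF1α/2α-ko (-0.31, adjusted p = 0.0124) and HIF1α-ko (-0.32, adjusted p = 0.0224), and CD44 stood at -0.98 in HIF1α-ko (adjusted p = 0.0536). The part of these markers in the results was not tested. Of the 5 markers of other cell types, PTPRC, MYOD1 and ALB stayed under 0.08 TPM, EPCAM reached 0.575 TPM and PECAM1 1.19 TPM, and CDKN2A was listed at 0 in all libraries. Vector replicate 1 stood apart from the other vector libraries. Its correlation of log2(TPM + 1) across genes was 0.968 and 0.966 with them, against 0.989 between them. Replicate 1 also stood apart in each knockout group, HIF1α/2α-ko included. Its correlations there were below that between replicates 2 and 3, but above those of vector replicate 1. Results of the 9 genes that change without vector replicate 1 are given both ways.

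The results showed that BCL2L1 and MCL1 made up most of the summed TPM of the survival BCL2 genes in every library. The values are per gene, so the annotated transcripts of a gene, 9 for BCL2L1 and 4 for MCL1, were not separated. In vector, BCL2L1 was the highest of the 9 genes at 82.2 ± 26.7 TPM (SD, n = 3), followed by MCL1 at 50.7 ± 12.7 TPM and CFLAR at 19.4 ± 2.37 TPM. This order of BCL2L1 over MCL1 over CFLAR held in 12 of 12 libraries. BCL2L2 (10.5 ± 7.83 TPM), XIAP (5.17 ± 1.00 TPM), BIRC2 (4.99 ± 1.28 TPM), BCL2A1 (2.60 ± 2.06 TPM) and BIRC6 (1.08 ± 0.158 TPM) came next, and each of them overlapped its neighbour in this order among the vector libraries. BCL2, the founding member of the family, was lowest at 0.249 ± 0.0171 TPM. Of the summed TPM of the 5 survival BCL2 genes, BCL2L1 held 48.0% to 71.2% over the 12 libraries, MCL1 25.5% to 41.4%, BCL2L2 2.41% to 14.4%, BCL2A1 0.0579% to 2.63% and BCL2 0.0850% to 0.539%.

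**Figure D1:**
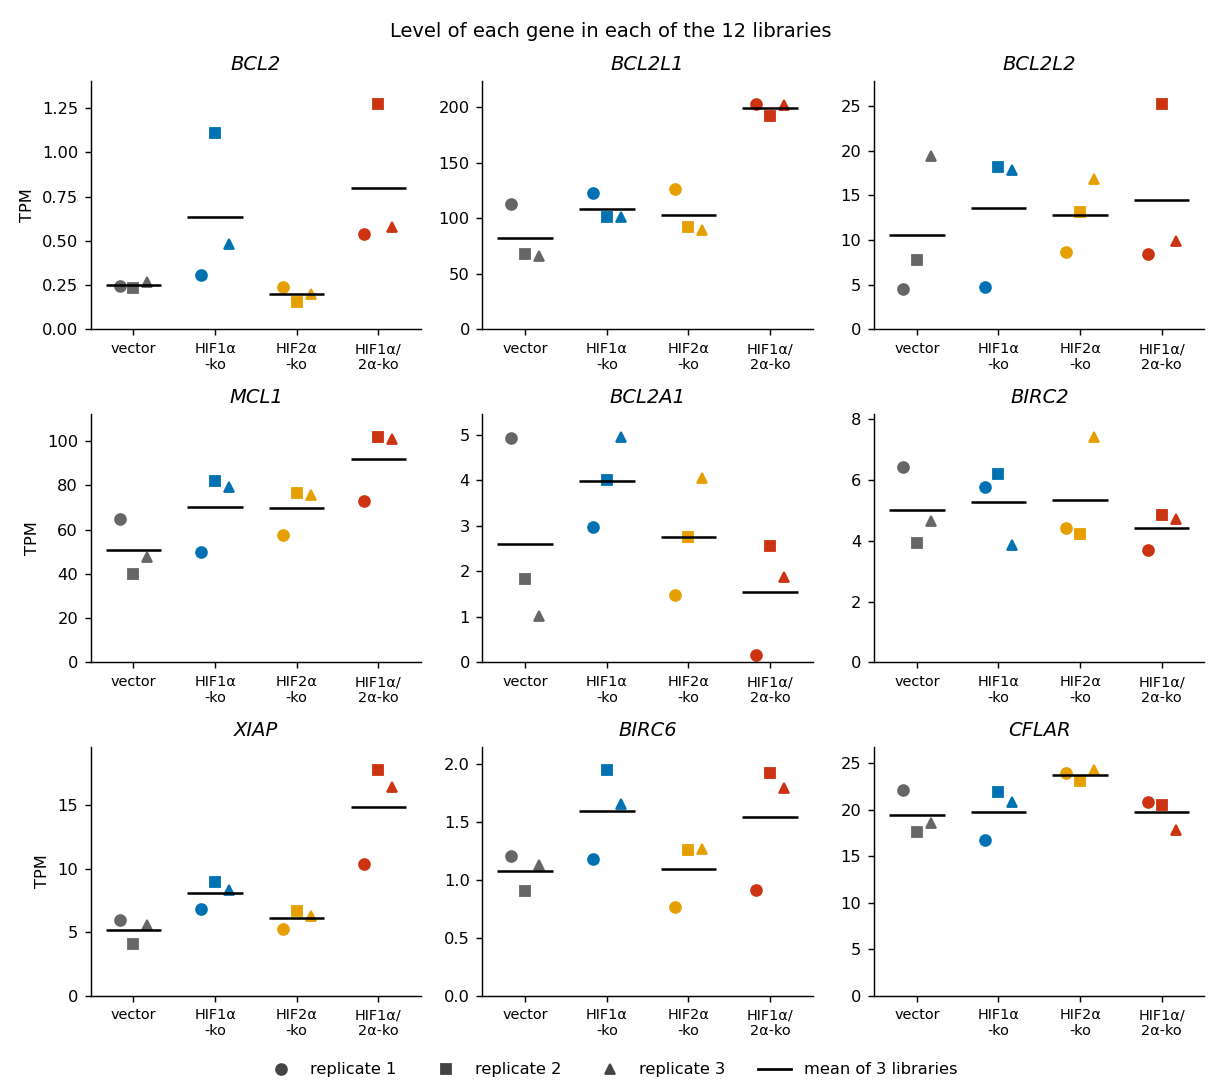
TPM of each of the 9 genes in each library (vertical axes, linear and starting at 0) for the 4 groups (horizontal axes); symbols mark the replicate number and black lines the mean of 3 libraries. BCL2L1 is at 193 to 203 TPM in HIF1α/2α-ko against at most 127 TPM elsewhere, XIAP is likewise highest there, and CFLAR is highest in HIF2α-ko.

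Of the 9 genes, 8 reached a TPM of 1 in 3 or more libraries and were tested among 11731 genes. BCL2 reached 1 TPM in 2 libraries only and was tested only in the alternative with no filter. In HIF1α/2α-ko against vector 3 of the 8 rose, BCL2L1, XIAP and MCL1, and 0 fell. Of all tested genes 31.8% rose and 14.8% fell in this comparison, so the share of the members that rose was near the background. In bulk RNA, fewer cells of a type and less RNA per cell cannot be told apart. The median over all tested genes was 0.21 in this comparison, against 0.01 with median ratio scaling, under which 24.3% rose and 22.2% fell. The median over the 8 members was 0.38, which depended on vector replicate 1. Without that library the median over all tested genes was 0.23. BCL2L1, MCL1, XIAP and BIRC6 (0.31) were then above it, and BCL2L2 (0.06), BCL2A1 (-0.07), BIRC2 (0.03) and CFLAR (0.12) below. An excess of the members over all genes is therefore not shown.

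BCL2L1 encodes BCL-XL, which restrains BAX and BAK1 at the mitochondrion, and its gene lies on chr20:31664452-31723989, minus strand (GRCh38). It stood at 113, 67.5 and 66.1 TPM in vector, at 123, 101 and 101 TPM in HIF1α-ko, at 127, 92.2 and 89.5 TPM in HIF2α-ko and at 203, 193 and 202 TPM in HIF1α/2α-ko. Every HIF1α/2α-ko library was above every other library, and the other 3 groups overlapped. The rise over vector was 1.31 ± 0.20 on the log2 scale, or 2.48-fold (95% interval 0.88 to 1.75, adjusted p = 0.000219), and 1.11 above the median of all genes. It passed the threshold in 20 of 20 alternatives, at 1.09 to 1.56. BCL2L1 in HIF1α/2α-ko also exceeded HIF1α-ko (0.88 ± 0.20, adjusted p = 0.00633) and HIF2α-ko (0.97 ± 0.20, adjusted p = 0.00185). Replicate 1 was the highest library in each group. The antisense genes ABALON and AL117381.1 overlap BCL2L1, and the strand setting of the counting is not given in the sources used here.

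MCL1 encodes a short-lived survival protein that binds BAK1 and BH3-only proteins, and its gene lies on chr1:150574551-150579738, minus strand. It stood at 64.7, 39.9 and 47.5 TPM in vector, at 50.1, 81.8 and 79.1 TPM in HIF1α-ko, at 57.5, 76.4 and 75.9 TPM in HIF2α-ko and at 72.9, 102 and 101 TPM in HIF1α/2α-ko. The HIF1α/2α-ko libraries were above the vector libraries and overlapped both single knockouts. The rise over vector was 0.86 ± 0.23 (1.81-fold, adjusted p = 0.00847), and it passed in 20 of 20 alternatives. Against HIF1α-ko the difference was 0.40 ± 0.23 (adjusted p = 0.216) and against HIF2α-ko 0.39 ± 0.23 (adjusted p = 0.186). In the 3 knockout groups replicate 1 was the lowest library. With the replicate number as a block over these groups, a choice made from the values, the same differences passed (adjusted p = 0.00523 and 0.00405). They did not pass with the block over all groups.

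XIAP, the inhibitor that binds caspases directly, lies on chrX:123859724-123913979, plus strand. It stood at 5.92, 4.03 and 5.55 TPM in vector, at 6.82, 8.97 and 8.33 TPM in HIF1α-ko, at 5.28, 6.63 and 6.30 TPM in HIF2α-ko and at 10.4, 17.8 and 16.4 TPM in HIF1α/2α-ko. As with BCL2L1, each HIF1α/2α-ko library was above each library of the other groups. The rise over vector was 1.34 ± 0.21 (2.54-fold, 95% interval 0.89 to 1.80, adjusted p = 0.000273), and it passed in 20 of 20 alternatives, at 1.04 to 1.57. XIAP was also higher than in HIF2α-ko (1.14 ± 0.21, adjusted p = 0.000888) and than in HIF1α-ko (0.79 ± 0.21, adjusted p = 0.0150). The last call was lost without HIF1α-ko replicate 1 (adjusted p = 0.0574) and without HIF1α/2α-ko replicate 2 or 3 (adjusted p = 0.0687 and 0.0619). XIAP-AS1 overlaps XIAP on the other strand, with the same limit as for BCL2L1.

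In HIF1α/2α-ko against HIF1α-ko 2 of the 8 rose and 0 fell, where 17.7% of all tested genes rose and 10.6% fell. Against HIF2α-ko 2 rose and 0 fell, where 33.5% rose and 12.9% fell, or 23.4% and 21.0% with median ratio scaling, under which 2 members rose and 1, CFLAR, fell. Both times the genes were BCL2L1 and XIAP. With the replicate block over the knockout groups, BCL2L1, MCL1 and XIAP rose and BCL2A1 fell in both comparisons. That block was chosen from these same values, so the added calls of MCL1 and BCL2A1 are no independent evidence. With the block over all groups only BCL2L1 and XIAP passed in both.

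**Figure D2:**
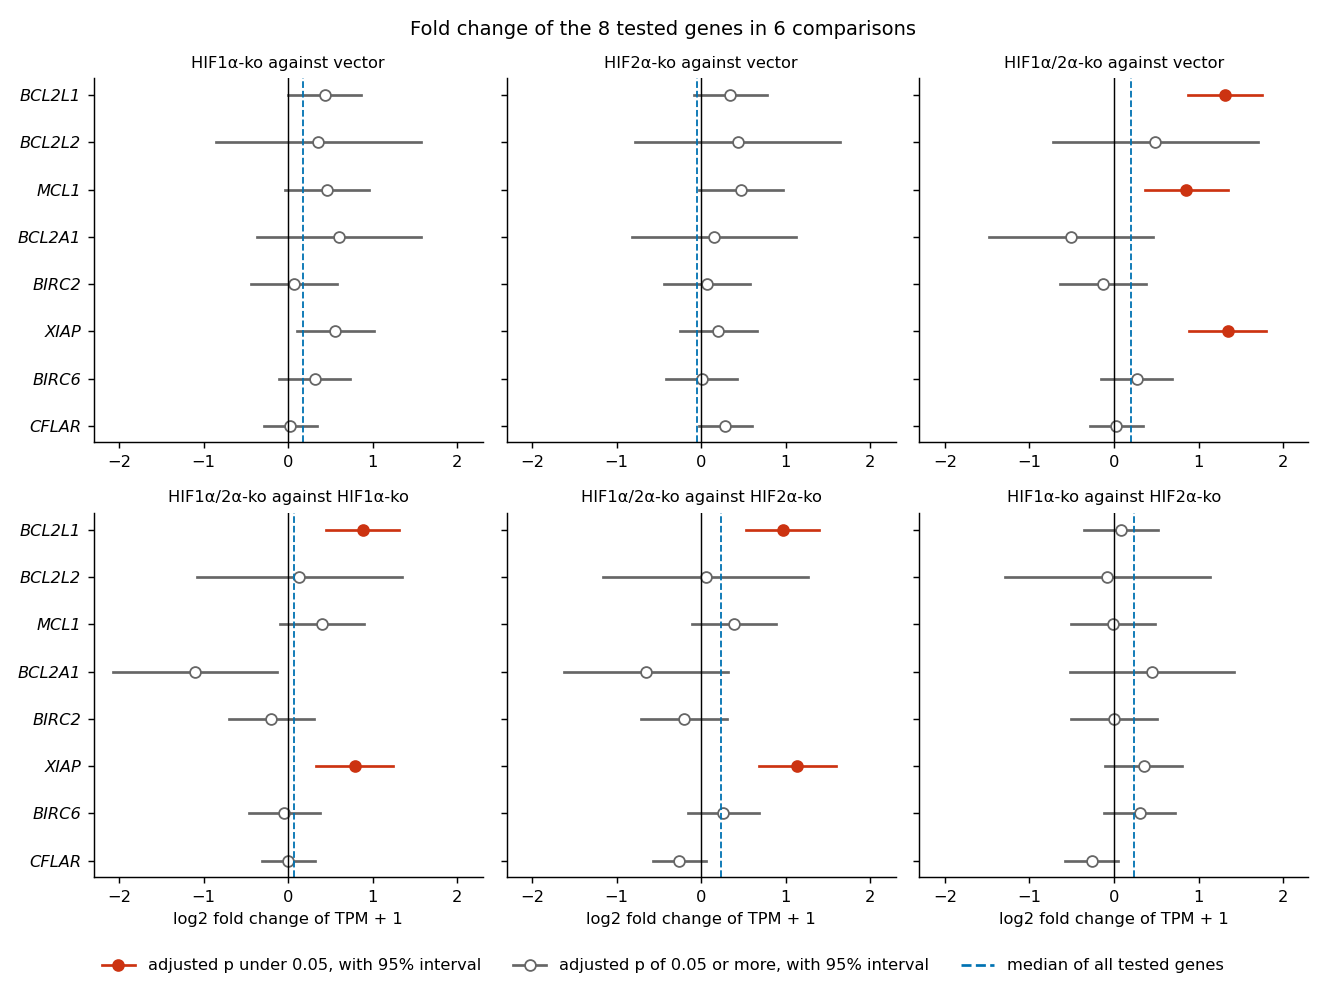
Log2 fold change of TPM + 1 (horizontal axes) of the 8 tested genes (rows) in 6 comparisons of groups, with 95% intervals from limma; filled red points passed an adjusted p of 0.05, and the dashed line is the median of all 11731 tested genes. BCL2L1 and XIAP passed in the 3 comparisons with HIF1α/2α-ko, MCL1 only in the comparison with vector, and no gene passed between the single knockouts and vector or between each other.

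In HIF1α-ko against vector 0 of the 8 genes passed the adjusted threshold by limma, where 17.3% of all tested genes rose and 8.77% fell (10.9% and 13% with median ratio scaling). At an unadjusted p under 0.05 there was 1, XIAP. Its difference was 0.56 ± 0.21 (adjusted p = 0.0681), and its HIF1α-ko libraries were above the vector libraries. For BCL2L1 the difference was 0.43 ± 0.20 (adjusted p = 0.125) and for MCL1 0.46 ± 0.23 (adjusted p = 0.151). These 3 depended on vector replicate 1, which was the highest vector library for each of them. Without it, BCL2L1 (0.68, adjusted p = 0.00574), MCL1 (0.65, adjusted p = 0.0482) and XIAP (0.65, adjusted p = 0.0478) passed. MCL1 alone passed without HIF1α-ko replicate 1 (0.68, adjusted p = 0.0423), and XIAP alone without HIF1α/2α-ko replicate 1 (adjusted p = 0.0259). The replicate block over all groups brought BCL2L1 (adjusted p = 0.0364) and XIAP (adjusted p = 0.0497) past the threshold, although vector was not taken as paired.

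In HIF2α-ko against vector 0 of the 8 passed by limma and 0 had an unadjusted p under 0.05, where 5.07% of all tested genes rose and 5.89% fell. The intervals allowed differences of up to 0.78 for BCL2L1 and 0.97 for MCL1. Without vector replicate 1, BCL2L1 passed (0.60, adjusted p = 0.0180) and MCL1 did not (0.66, adjusted p = 0.0647). Between HIF1α-ko and HIF2α-ko 0 of the 8 passed and 0 had an unadjusted p under 0.05, where 17.8% of all tested genes were higher in HIF1α-ko and 7.37% lower (8.8% and 11.1% with median ratio scaling). With the replicate block over the knockout groups, chosen from the values, XIAP was higher in HIF1α-ko (0.35, adjusted p = 0.0392). With the block over all groups it did not pass.

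The interaction term asks whether the effect of both knockouts together differs from the sum of the single effects. For 0 of the 8 genes did it pass by limma, with 0 at an unadjusted p under 0.05, where 13.2% of all tested genes had a positive and 7.35% a negative term that passed. For BCL2L1 it was 0.53 (95% interval -0.08 to 1.15, adjusted p = 0.197), for XIAP 0.58 (-0.06 to 1.22, adjusted p = 0.184) and for MCL1 -0.07 (-0.78 to 0.63, adjusted p = 0.892). The intervals of BCL2L1 and XIAP reach from just below 0 to over 1, so a sum of the single effects and a larger joint effect could not be told apart. Without HIF1α/2α-ko replicate 1 the term of XIAP passed (0.80, adjusted p = 0.0371).

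**Figure D3:**
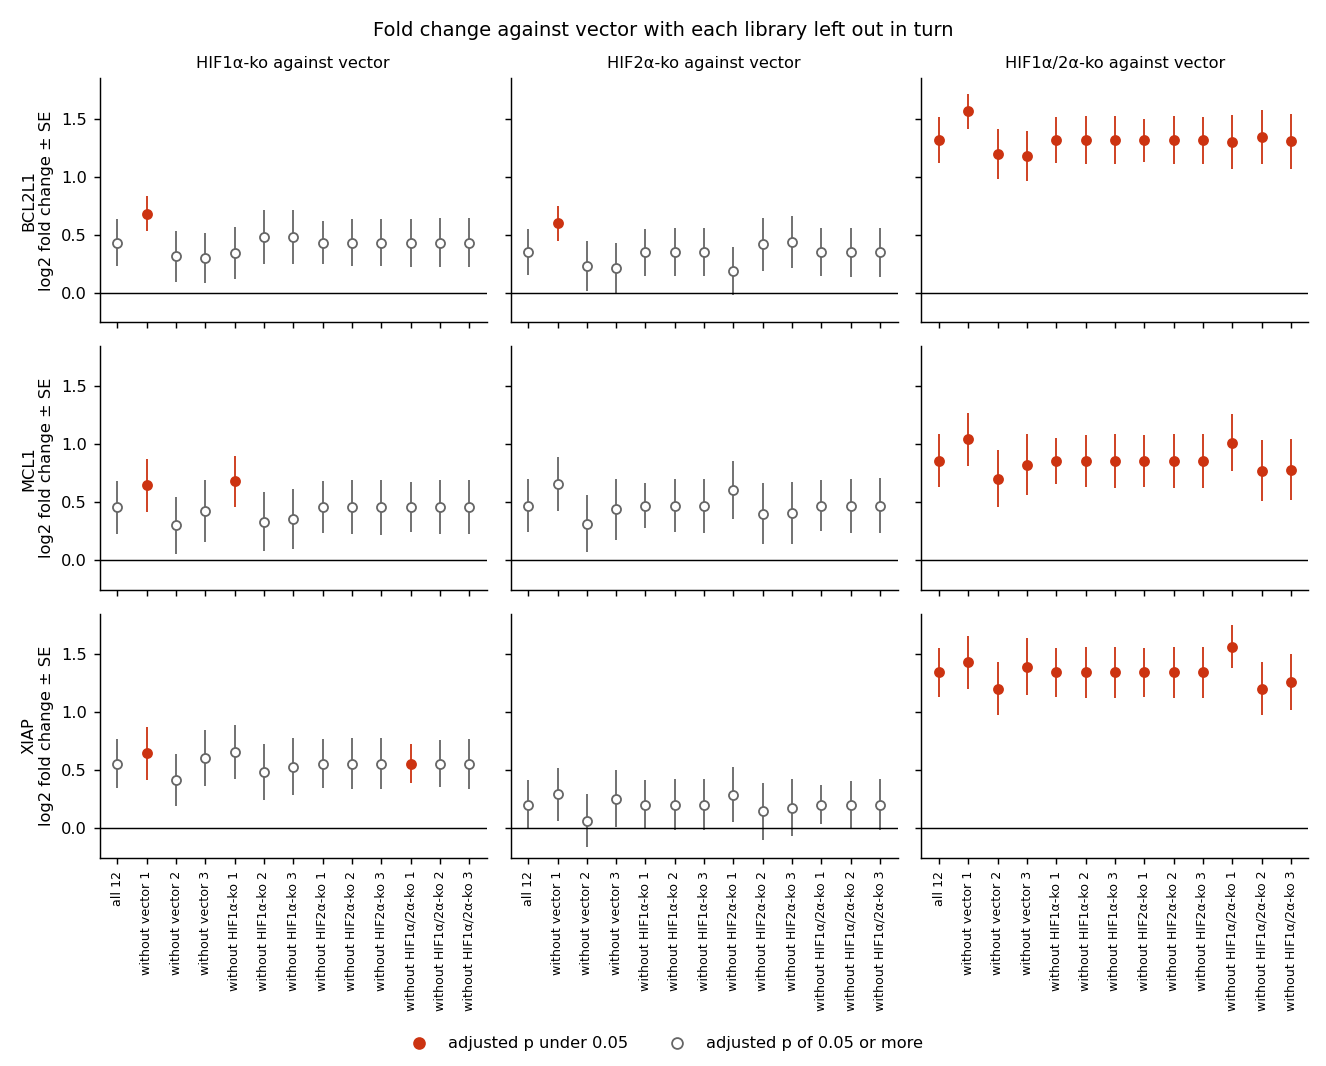
Log2 fold change against vector ± SE (vertical axes) of BCL2L1, MCL1 and XIAP (rows) in the 3 knockout groups (columns), with all 12 libraries and with each library left out in turn (horizontal axes); filled red points passed an adjusted p of 0.05. All points of HIF1α/2α-ko passed, whereas those of the single knockouts passed in few cases, mostly without vector replicate 1.

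BCL2L2, BCL2A1 and BCL2 are the survival BCL2 genes of low level. BCL2L2, which encodes BCL-w, stood at 4.51, 7.71 and 19.4 TPM in vector, at 4.70, 18.2 and 17.9 TPM in HIF1α-ko, at 8.61, 13.1 and 16.8 TPM in HIF2α-ko and at 8.49, 25.3 and 9.84 TPM in HIF1α/2α-ko. All 4 groups overlapped, and vector alone spanned 4.51 to 19.4 TPM. Its difference in HIF1α/2α-ko was 0.49 ± 0.56 (95% interval -0.72 to 1.70, adjusted p = 0.497), and 0.06 without vector replicate 1 (adjusted p = 0.940). The read-through gene BCL2L2-PABPN1 shares bases with BCL2L2 on the same strand (chr14:23306835-23325369 and chr14:23298790-23311759), so reads could be split between them. Their summed TPM was 15.4 ± 7.40 (SD, n = 3) in vector and 19.6 ± 7.77 in HIF1α/2α-ko, with 17.3 ± 4.60 for the HIF1α knockout and 19.9 ± 5.46 for the HIF2α knockout.

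BCL2A1 encodes BFL-1, a survival protein best known as an NF-κB target. It stood at 4.93, 1.84 and 1.03 TPM in vector, at 2.98, 4.01 and 4.96 TPM in HIF1α-ko, at 1.47, 2.76 and 4.05 TPM in HIF2α-ko and at 0.165, 2.57 and 1.88 TPM in HIF1α/2α-ko. Each HIF1α/2α-ko library was below each HIF1α-ko library, the opposite order to BCL2L1 and XIAP. The difference was -1.10 ± 0.45 (adjusted p = 0.0834, unadjusted p = 0.0288). It passed in 3 of 20 alternatives, with adjusted p up to 0.279 in the others. These 3 were the replicate block over the knockout groups (adjusted p = 0.00577), quantile normalization (adjusted p = 0.0491) and the fit without vector replicate 1 (adjusted p = 0.0491). Against HIF2α-ko the difference was -0.66 (adjusted p = 0.250, or 0.0372 with that block). Against vector it was -0.50 (adjusted p = 0.377), and -0.07 without vector replicate 1 (adjusted p = 0.911).

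BCL2 stood at 0.243, 0.236 and 0.269 TPM in vector, at 0.305, 1.11 and 0.483 TPM in HIF1α-ko, at 0.239, 0.157 and 0.199 TPM in HIF2α-ko and at 0.537, 1.28 and 0.581 TPM in HIF1α/2α-ko. The libraries of HIF1α-ko and of HIF1α/2α-ko were above all vector and HIF2α-ko libraries. At these levels no fold change is given. In the alternative with no filter BCL2 passed as higher in HIF1α/2α-ko than in HIF2α-ko, and in no other comparison. BCL2 lies on chromosome 18, where the antisense gene AC022726.2 overlaps it.

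The libraries of HIF1α-ko were above those of vector, with no overlap, for 2 of the 9 genes (BCL2 and XIAP), against 27.3% of all tested genes, and below for 0, against 12.3%. In HIF2α-ko it was 1 above (CFLAR), against 12.6%, and 0 below, against 18%. In HIF1α/2α-ko it was 4 above (BCL2, BCL2L1, MCL1 and XIAP), against 33.1%, and 0 below, against 17.4%. These shares are over the genes that passed the filter, and BCL2 was not among them. Among the tested members, XIAP alone was above in HIF1α-ko, and BCL2L1, MCL1 and XIAP were above in HIF1α/2α-ko.

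BIRC2 and BIRC6, the other inhibitor of apoptosis genes among the 9, passed in 0 comparisons with all libraries. BIRC2, which encodes cIAP1, a ubiquitin ligase of tumor necrosis factor receptor complexes, stood at 6.42, 3.93 and 4.63 TPM in vector, at 5.77, 6.17 and 3.85 TPM in HIF1α-ko, at 4.42, 4.21 and 7.41 TPM in HIF2α-ko and at 3.69, 4.84 and 4.69 TPM in HIF1α/2α-ko. All groups overlapped. The difference in HIF1α/2α-ko was -0.13 (95% interval -0.64 to 0.37, adjusted p = 0.665), and 0.03 without vector replicate 1 (adjusted p = 0.928). BIRC6, which encodes a very large ubiquitin-conjugating enzyme, stood at 1.21, 0.90 and 1.12 TPM in vector, at 1.18, 1.95 and 1.65 TPM in HIF1α-ko, at 0.767, 1.26 and 1.27 TPM in HIF2α-ko and at 0.910, 1.92 and 1.79 TPM in HIF1α/2α-ko. Replicate 1 was the lowest BIRC6 library of each knockout group. The difference in HIF1α/2α-ko was 0.27 (95% interval -0.15 to 0.69, adjusted p = 0.274), and it passed without HIF1α/2α-ko replicate 1 (0.46, adjusted p = 0.0461).

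CFLAR encodes c-FLIP, which takes the place of caspase 8 at death receptors. It stood at 22.1, 17.6 and 18.6 TPM in vector, at 16.7, 21.9 and 20.8 TPM in HIF1α-ko, at 23.9, 23.1 and 24.3 TPM in HIF2α-ko and at 20.8, 20.6 and 17.9 TPM in HIF1α/2α-ko. Each HIF2α-ko library was above each of the other 9, by a narrow margin, and the other groups overlapped. The difference of HIF2α-ko from vector was 0.28 ± 0.14 (adjusted p = 0.232). HIF1α/2α-ko differed from HIF2α-ko by -0.26 ± 0.14 (adjusted p = 0.164), and HIF1α-ko did so by the same amount (adjusted p = 0.196). With median ratio scaling these passed, at -0.52 (adjusted p = 0.0112) and -0.50 (adjusted p = 0.0289), and with quantile normalization the first did, at -0.58 (adjusted p = 0.00596). In HIF1α/2α-ko CFLAR was not shown to differ from vector (0.03, 95% interval -0.29 to 0.34, adjusted p = 0.898).

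The partners of these proteins, from fixed lists, were then read in HIF1α/2α-ko against vector, where 31.8% of all tested genes rose and 14.8% fell (24.3% and 22.2% with median ratio scaling). Of the BCL2 effectors 2 of the 2 tested rose, BAK1 (2.25, adjusted p = 9.27e-07) and BAX (0.94, adjusted p = 0.000113). Of the 7 BH3-only genes tested, whose proteins oppose the survival BCL2 proteins, 4 rose and 0 fell, with BBC3, which encodes PUMA, at 2.04 (adjusted p = 2.57e-06) and HRK at 0.80 (adjusted p = 0.000364). The rise of BAK1 was from 2.21 ± 0.190 to 14.3 ± 0.872 TPM, and that of BBC3 from 4.01 ± 0.733 to 19.4 ± 0.481 TPM (SD, n = 3), so both were larger on the log2 scale than that of any of the 8 members. Of the 9 caspase and apoptosome genes 4 rose and 0 fell, with CYCS, which encodes cytochrome c, at 2.53 (adjusted p = 4.4e-06). The count was 3 and 1 with median ratio scaling, 2 and 1 with quantile normalization, and 3 and 0 without vector replicate 1.

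Of the IAP antagonists 3 were tested. HTRA2, a mitochondrial protease that can bind XIAP, was higher by 0.63 (adjusted p = 0.00550), which median ratio scaling and quantile normalization did not keep past the threshold, and SEPTIN4, whose ARTS form binds XIAP, fell by 1.01 (adjusted p = 0.00917). Of 5 death receptor adaptors 2 rose, TRADD (0.53, adjusted p = 0.0172) and TRAF2 (0.54, adjusted p = 0.0190), and 0 did so with median ratio scaling or quantile normalization, but 4 without vector replicate 1. Over the 20 alternatives the TRADD call passed in 14 and the TRAF2 call in 15. Of 5 genes for MCL1 turnover 1 rose, HUWE1, which encodes a ubiquitin ligase for MCL1 (0.53, adjusted p = 0.0390). This call passed in 10 of 20 alternatives. It was lost with both scalings as well, and without some single libraries (adjusted p up to 0.171). FBXW7, another ligase gene for MCL1, stood at 0.61 (adjusted p = 0.0646). Of 10 further survival genes tested 2 rose and 1 fell (4 and 1 without vector replicate 1, 1 and 1 with median ratio scaling): FAIM2, an inhibitor of Fas signalling, rose by 1.41 (adjusted p = 0.00270), and BAG3, a co-chaperone, fell by 0.93 (adjusted p = 0.00131).

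In HIF1α-ko against vector, where 17.3% of all tested genes rose and 8.77% fell, the call counts of most lists moved with the scaling or with vector replicate 1. Of 2 effectors 2 rose, and 1 did with median ratio scaling, with quantile normalization or without that library. Of 7 BH3-only genes 2 rose, against 1 higher and 1 lower with median ratio scaling, 0 and 1 with quantile normalization, and 3 and 0 without that library. Of 9 caspase and apoptosome genes 4 rose (3 to 5 in these alternatives), of 5 adaptors 2 (2 in each alternative), of 3 IAP antagonists 1 (0 in each) and of 5 MCL1 turnover genes 1, with 1 lower under either scaling. Of the 10 further survival genes 1 rose and 2 fell, or 2 and 3 without that library. In HIF2α-ko, where 5.07% of all tested genes rose and 5.89% fell, 2 BH3-only genes (3 without that library), 1 adaptor (2 in each alternative) and 1 further survival gene rose, 1 further survival gene fell, and 0 genes of the other lists passed by limma. Of the caspase and apoptosome genes 1 passed there in each alternative. Without that library 2 further survival genes rose and 2 fell, and with quantile normalization 1 rose and 0 fell. Of the 8 tested members 0 passed in either single knockout with all libraries.

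BAX was used as a yardstick within each library, since such a ratio does not depend on how a library is scaled. This holds for a ratio to any gene, and BAX itself rose in HIF1α/2α-ko over vector (0.94). The other tested effector, BAK1, rose by more (2.25) than BCL2L1 (1.31) or MCL1 (0.86), and no ratio to it was taken. BCL2L1 stood at 1.06, 0.501 and 0.533 times the TPM of BAX in vector, at 0.799, 0.652 and 0.604 times in HIF1α-ko, at 0.830, 0.690 and 0.660 times in HIF2α-ko and at 1.02, 0.754 and 0.811 times in HIF1α/2α-ko. The ratio was highest in replicate 1 of every group, and all groups overlapped vector with all libraries. MCL1 stood at 0.428 ± 0.160 times BAX (SD, n = 3) in vector and 0.389 ± 0.0221 times in HIF1α/2α-ko, with 0.443 ± 0.105 for the HIF1α knockout and 0.502 ± 0.11 for the HIF2α knockout. Thus the levels of BCL2L1 and MCL1 were higher in HIF1α/2α-ko than in vector, while their ratios to BAX overlapped between these groups. For BCL2L1 the overlap rested on vector replicate 1, at 1.06, since each HIF1α/2α-ko ratio was above the other vector ratios, 0.501 and 0.533. For MCL1 the ratios overlapped without it as well, with 0.296 and 0.383 in vector against 0.364 to 0.405 in HIF1α/2α-ko. The summed TPM of the 5 survival BCL2 genes was 308 ± 20.1 in HIF1α/2α-ko against 146 ± 36.7 in vector, and the single knockouts lay between them at 197 ± 13.9 (HIF1α-ko) and 189 ± 5.37 (HIF2α-ko).

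**Figure D4:**
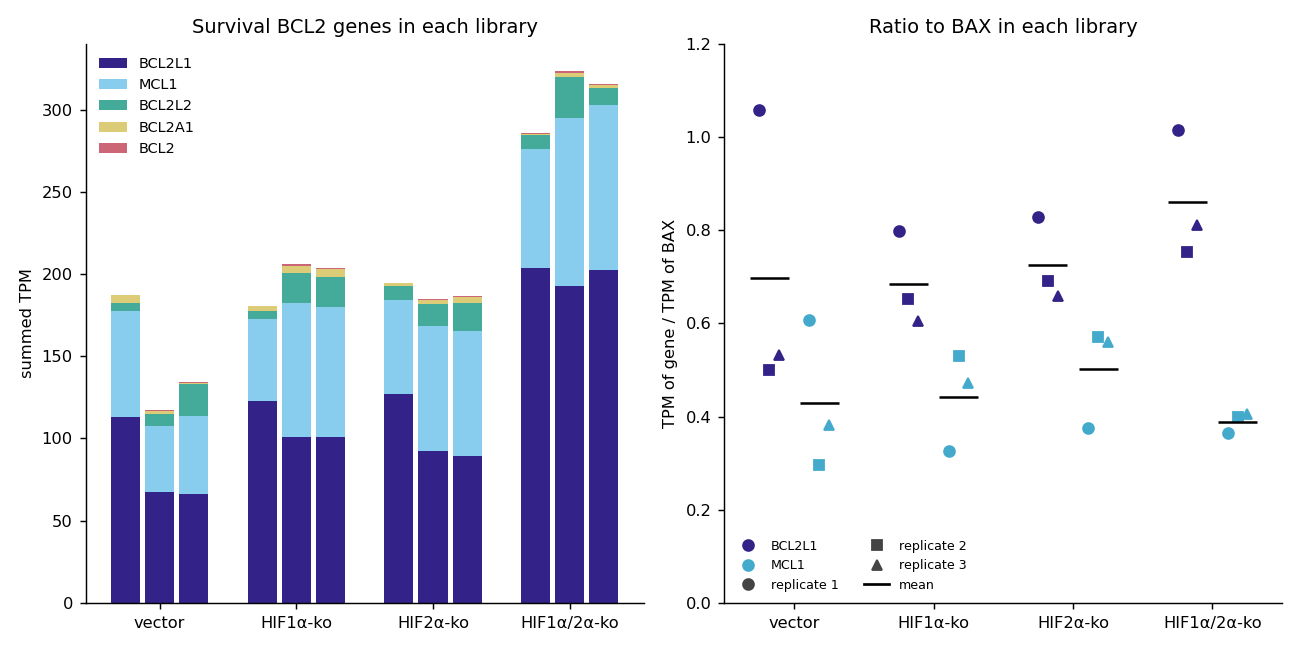
Left, summed TPM of the 5 survival BCL2 genes in each library (bars from replicate 1 to 3 in each group, stacked by gene); right, the ratio of BCL2L1 and of MCL1 to BAX in each library (vertical axis, linear), with black lines for the mean of 3 libraries. The sum lies between 285 and 324 TPM in HIF1α/2α-ko and at most at 206 TPM elsewhere, and the ratios overlap between groups.

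Likeness of pattern was measured as Pearson's r of log2(TPM + 1) over the 12 libraries, which come in 4 groups and are no independent points, so it is a description only. The most alike gene was SGPP1 for XIAP (r = 0.990), VARS1 for BCL2L1 (r = 0.989), PAN3 for BIRC6 (r = 0.994), HERC4 for MCL1 (r = 0.972) and JAKMIP2 for BCL2A1 (r = 0.922). The number of genes above an r of 0.9 was 839 for XIAP, 235 for BCL2L1, 205 for BIRC6, 49 for MCL1 and 21 for BCL2A1. It was 0 for BCL2L2, BIRC2 and CFLAR, whose most alike genes were MYO1D (r = 0.853), ETV1 (r = 0.832) and FIGNL1 (r = 0.856). Among the members, the highest values were between MCL1 and XIAP (r = 0.850) and between BCL2L1 and XIAP (r = 0.819).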

How the data were processed

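Bulk mRNA sequencing of U-87 MG cells under 1% O2 gave 12 libraries. The deposited values are TPM per gene, made by the authors and named by Ensembl identifier. The submitters' processing notes list FastQC 0.11.2, Trimmomatic 0.36, HISAT2 2.0, bedtools 2.26.0 and GRCh38, with no roles. The counting tool and its strand setting are not given in the sources used here. The library totals were 999955 to 999982 TPM, so depth is unknown and no count model was used. The knockout columns name their group. The 3 columns with no knockout code were taken as vector.

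The members and lists were chosen with earlier results of these data known. TPM was taken to log2(TPM + 1), which understates the change of low genes, and limma 3.58.1 (R 4.3.3; mean-variance trend, 4 groups in 1 fit) was run on the 11731 genes that reached 1 TPM in 3 or more libraries. P-values were adjusted by Benjamini-Hochberg over all tested genes within each of 7 contrasts, at a threshold of 0.05. All 9 members were named, as were the 2 lowest p-values of each list for HIF1α/2α-ko against vector, the gene most like each tested member, BAX, HIF1A and EPAS1. For 1 gene named by this rule the result is not reported here. Genes were placed with GENCODE 29 on GRCh38. Tables and figures were made with pandas 2.3.3 and matplotlib 3.10.9 in Python 3.11.15 (numpy 2.4.6).

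Alternatives were a pseudocount of 0.1, no filter, a mean TPM of at least 5, median ratio scaling, quantile normalization, 2 groups only, no trend, the replicate number as a block over all groups or the knockout groups, and each library left out. Libraries with the same number deviated together in the knockout groups (r = 0.196 to 0.508 across genes in 9 pairs). With different numbers r was -0.416 to 0.302 in 18 pairs, so the ranges overlap. Replicates 1 of different knockout groups went together, at 0.463 to 0.508. With replicates 2 and 3 of the other knockout groups they stood at -0.416 to -0.269, so replicate 1 deviated alike in these groups. Replicates 2 and 3 of different knockout groups also went together, at 0.158 to 0.302, so a pairing of these 2 by number is not shown. The number was used as a block for these groups from the values alone, and the labels give no pairing. Between vector and knockout libraries of the same number r was -0.0265 to 0.163, and vector was not taken as paired.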

Additional observations from a re-analysis of the deposited data

Results flagged for a closer look

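None of the 9 members had an interaction term past the threshold, but 5 other genes named in the report did, which means that the effect of one knockout differed with the other (limma, adjusted over all tested genes). The term was 1.02 ± 0.21 (SE) on the log2 scale for BAK1 (adjusted p = 0.00621), 1.09 ± 0.22 for BBC3 (adjusted p = 0.00607) and 1.26 ± 0.30 for CYCS (adjusted p = 0.0130). BAK1 stood at 5.50 ± 0.885 TPM in HIF1α-ko and 2.75 ± 0.00748 TPM in HIF2α-ko (SD, n = 3), against 14.3 ± 0.872 TPM in HIF1α/2α-ko. For HIF1A the term was 1.15 ± 0.28 (adjusted p = 0.0131), the sum of a difference of 0.64 between HIF1α/2α-ko and HIF1α-ko and of 0.52 between vector and HIF2α-ko, whose own fold change of -0.52 did not pass (adjusted p = 0.112). For TRADD it was -0.80 ± 0.23 (adjusted p = 0.0286): TRADD stood at 118 ± 16.0 TPM in HIF2α-ko and at 93.4 ± 12.5 TPM in HIF1α/2α-ko. The TRADD term passed in 15 of 19 alternatives and was lost without HIF1α-ko replicate 2 or 3 or HIF2α-ko replicate 2 or 3 (adjusted p up to 0.0734), whereas the other 4 terms passed in 19 of 19. Beside these values, the background was 13.2% of all tested genes with a positive and 7.35% with a negative term that passed.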

How the results depend on the processing

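The rises of BCL2L1, MCL1 and XIAP in HIF1α/2α-ko over vector passed under all 20 alternatives, and the number of members called there was 3 to 4 with a library left out. With a library left out, the number called was 0 to 3 in HIF1α-ko against vector, 0 to 1 in HIF2α-ko against vector, 1 to 3 in HIF1α/2α-ko against HIF1α-ko, 2 to 3 against HIF2α-ko, 0 to 0 between the single knockouts and 0 to 1 for the interaction. The replicate block over all groups gave 2 called (BCL2L1 and XIAP) instead of 0 in HIF1α-ko against vector. The replicate block over the knockout groups gave 4 instead of 2 in HIF1α/2α-ko against either single knockout, and 1 (XIAP) instead of 0 between the single knockouts. Median ratio scaling gave 1 (CFLAR) there. The cause of these shifts was not tested. The block changed no other call of a member. The 8 members that passed the filter gave 1122 refitted values. Of these, 1098 kept their direction and side of the threshold or changed sign while past it in neither fit (63 of them). Another 21 newly passed, 3 no longer did, and 0 of those that passed reversed. Depth is unknown, so counting error cannot be given, and with 3 libraries a group a call can rest on 1 of them, as for vector replicate 1.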
